A study of Homo sapiens with 12 samples.

Results

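The acyl-CoA thioesterase genes of the ACOT family were followed across 12 arrays of T47D-MTVL cells. A probe set, called a row here, was taken where its annotation named ACOT1, ACOT2, ACOT4, ACOT6, ACOT7, ACOT8, ACOT9, ACOT11, ACOT12 or ACOT13. This gave 11 rows for 10 genes, of 21214 rows with a gene symbol and 33297 rows in all. ACOT7 had more than 1 row, and each gene was represented by the row with the highest mean over the 12 arrays. The family was picked with the large hormone response of ACOT6 in control cells already known, so that response, and each comparison of ACOT6 that uses siCt arrays, is given below as a description without a test and stays out of the counts for those comparisons.

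Acyl-CoA thioesterases split a fatty acyl-CoA into a free fatty acid and coenzyme A, and so set the balance between activated and free fatty acids in each compartment of the cell. The type I enzymes share an alpha/beta-hydrolase fold. The type II enzymes share a hotdog fold and are otherwise unrelated in sequence to the first type. In liver and heart several of the genes are known targets of the fatty acid receptor PPAR-alpha.

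T47D cells come from a luminal, progesterone receptor positive breast cancer, and the MTVL derivative carries a luciferase reporter under the mouse mammary tumour virus promoter. Cells were transfected with a control siRNA (siCt) or with an siRNA against the chromatin remodeller CHD8 (siCHD8), kept for 48 h in serum-free medium, and given 10 nM of the synthetic progestin R5020 or its ethanol vehicle (EtOH) for 6 h. All 12 arrays come from this 1 derivative line, with 3 arrays for each of the 4 conditions. The design asks how the genes respond to progestin and whether CHD8 depletion alters that response.

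The values are log2 intensities of Affymetrix Human Gene 1.0 ST arrays, so a difference of 1 is a doubling of signal. Array medians lay between 4.52 and 4.62, and arrays of the same condition correlated at 0.989 to 0.996 over all rows. The loosest mean correlations with their own condition were those of siCt EtOH replicate 3 (0.9891) and siCHD8 EtOH replicate 1 (0.9904). siCHD8 EtOH replicate 3 (0.9907) was close behind. All 12 luminal epithelial markers measured were brighter than the median row, against 2 of 6 basal or mesenchymal markers (KRT14 and ACTA2), 1 of 6 fibroblast markers (COL1A1), 0 of 5 adipocyte markers and 0 of 7 markers of blood or endothelium. The mean of the luminal markers lay between 9.08 and 9.77 on every array and was lower on each R5020 array than on any vehicle array, and its part in the results below was not tested. In cell extracts of this kind, fewer cells expressing a gene and less RNA per cell cannot be told apart.

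CHD8 itself measured 5.70, 5.71 and 5.91 in siCt EtOH, against 5.42, 5.11 and 5.04 in siCHD8 EtOH. With R5020 it measured 5.52, 5.24 and 5.29 in siCt, against 4.77, 4.62 and 4.81 after depletion. For either treatment the siCHD8 arrays all lay under the siCt arrays, as for 8.06% of all rows with EtOH and 15.3% with R5020. CHD8 was also lower with R5020 than with EtOH, with means of 5.35 against 5.77 in siCt and 4.73 against 5.19 in siCHD8. The siCHD8 EtOH arrays overlapped the siCt R5020 arrays. The difference between siCHD8 and siCt was -0.58 ± 0.13 (SE) with EtOH and -0.62 ± 0.13 (SE) with R5020, with limma adjusted p = 0.0711 and 0.0627. Neither difference thus passed the threshold of 0.05 over all rows. The study reported CHD8 depletion from its own RT-PCR and Western blots.

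ACOT1, ACOT2, ACOT4 and ACOT6, the type I genes measured, lie side by side on chromosome 14. The 300 bases around their RefSeq starts (250 before and 50 after, build GRCh38.p14) are shown for 3 of them, because these neighbouring genes gave the responses described next. Capitals mark each CG pair. ACOT2 has a second annotated start within reach of the first, and ACOT1 was not matched in the table of starts. The windows are chr14:73568809-73569108 for the first start of ACOT2, chr14:73591623-73591922 for ACOT4 and chr14:73610695-73610994 for ACOT6, all on the plus strand.
ACOT2: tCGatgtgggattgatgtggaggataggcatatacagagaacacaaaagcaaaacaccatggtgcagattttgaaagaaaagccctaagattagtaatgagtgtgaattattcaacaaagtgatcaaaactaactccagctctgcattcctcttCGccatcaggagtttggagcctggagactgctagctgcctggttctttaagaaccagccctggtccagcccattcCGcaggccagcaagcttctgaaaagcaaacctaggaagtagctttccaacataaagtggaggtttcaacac
ACOT4: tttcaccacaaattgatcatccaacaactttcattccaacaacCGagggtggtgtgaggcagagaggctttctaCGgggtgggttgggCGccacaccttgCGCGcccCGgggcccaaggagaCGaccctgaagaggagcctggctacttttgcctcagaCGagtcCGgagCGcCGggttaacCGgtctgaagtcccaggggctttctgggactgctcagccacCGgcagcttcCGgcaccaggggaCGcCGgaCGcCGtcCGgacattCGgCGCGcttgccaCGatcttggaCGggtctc
ACOT6: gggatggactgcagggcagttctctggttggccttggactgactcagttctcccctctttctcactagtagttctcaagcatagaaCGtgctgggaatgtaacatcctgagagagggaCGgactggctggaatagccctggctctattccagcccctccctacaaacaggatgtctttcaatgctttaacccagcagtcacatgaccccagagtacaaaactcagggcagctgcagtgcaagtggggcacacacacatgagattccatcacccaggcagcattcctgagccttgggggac

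The ACOT6 window held 2 CG pairs and 53.7% G and C, the ACOT2 window 3 pairs and 45.0%, and the ACOT4 window 24 pairs and 62.7%. Over 35116 RefSeq windows of the same length the medians were 14 pairs and 58.7%. Both strands were searched for the full progestin and glucocorticoid element (GNACA and TGTNC with 3 bases of any kind between them), which 0.39% of all windows held. None of the 13 windows of 9 family members held it. The shorter receptor site TGTTCT can share TGTTC with the end of the full element and reaches past it. This site was present in 14.8% of all windows. Among members it was in the ACOT2 window above at position -213 from the start (on the minus strand) and in 1 window of ACOT7. The PPAR element, a direct repeat of AGGTCA with 1 base of any kind between the copies, was in 0.0228% of windows and in no member. Its repeated unit AGGTCA was in 13.8% of windows and, among members, in 1 window of ACOT7. These are letter matches in short windows and describe no binding.

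In siCt cells R5020 was accompanied by higher signal of ACOT6 above all, and by smaller rises of ACOT1, ACOT2, ACOT4, ACOT9 and ACOT11. Apart from ACOT6, 5 of the other 9 genes rose and 0 fell at a limma adjusted p under 0.05, where 8.1% of all rows rose and 6% fell. In siCHD8 cells ACOT6, ACOT1, ACOT2 and ACOT4 rose, that is all 4 genes of the cluster, where 6.04% of all rows rose and 5.43% fell. Without ACOT6, 3 of the other 9 genes rose there and 0 fell. In either direction 14.1% of all rows were called in siCt and 11.5% in siCHD8. The 3 hormone arrays were all above the 3 vehicle arrays for 5 of the other 9 genes in siCt and all below for 1, against 15.3% and 18.7% of all rows. In siCHD8 they were all above for 4 of the 9 genes other than ACOT6 and all below for 0, against 13% and 14.2%. The median change of the 9 genes other than ACOT6 was 0.51 in siCt and 0.23 in siCHD8, beside -0.05 and -0.02 over all rows tested. In siCt that median is the value of the brightest ACOT7 row, which did not pass.

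**Figure D1:**
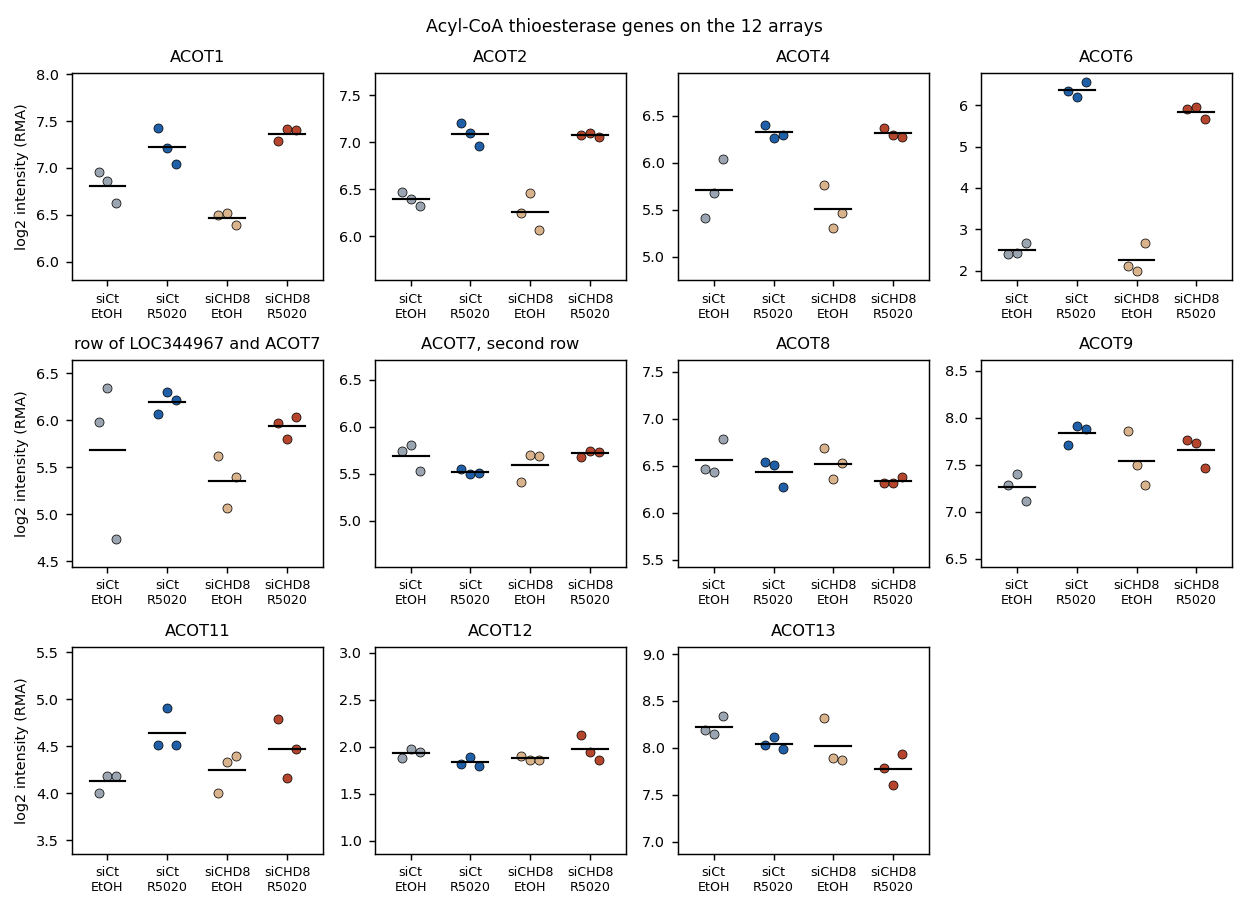
Log2 intensity of each ACOT row on the 12 arrays, 1 panel per row with its own vertical axis. Points are arrays, grouped by condition, and bars are condition means (n = 3). ACOT6 lies between 1.99 and 2.67 on every vehicle array and between 5.67 and 6.56 on every R5020 array.

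ACOT6 is the least studied of the type I genes in human cells. It measured 2.40, 2.43 and 2.67 in siCt EtOH and 6.35, 6.19 and 6.56 in siCt R5020. In siCHD8 cells it measured 2.12, 1.99 and 2.67 with EtOH and 5.90, 5.97 and 5.67 with R5020. The vehicle and hormone arrays were far apart in both cell groups, and the siCHD8 hormone arrays were all below the siCt hormone arrays. The change with R5020 was 3.86 ± 0.16 (SE) in siCt, a 14.5-fold ratio of signal, and no row of the 21214 had a higher one. In siCHD8 ACOT6 rose by 3.59 ± 0.16 (SE), 12-fold, with limma adjusted p = 3.3e-09, and ranked 3 of the 21214 rows. These arrays are not those of the siCt pair, but the fit took its spread from all 12 arrays. A rise under the same hormone was likely once the siCt response was known, so this p-value is no independent support. With only the compared conditions fitted, the siCHD8 rise was 3.59 ± 0.18 (SE), with limma adjusted p = 1.83e-06. On the vehicle arrays 18.8% of all rows tested had a lower mean than ACOT6, and the means of the blood and endothelium markers lay between 2.17 and 2.37 over the 12 arrays, within the span of the ACOT6 vehicle values. The values come without detection calls, so ACOT6 was not shown to be above background without hormone. Both ratios of signal may therefore understate the change of its transcript, which was not tested.

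ACOT2, the mitochondrial matrix enzyme for long-chain acyl-CoA, measured 6.47, 6.39 and 6.32 in siCt EtOH and 7.20, 7.09 and 6.96 in siCt R5020. It measured 6.25, 6.46 and 6.07 in siCHD8 EtOH and 7.08, 7.10 and 7.05 in siCHD8 R5020. No hormone array overlapped a vehicle array in either group. The rise was 0.69 ± 0.12 (SE) in siCt, 1.61-fold, with limma adjusted p = 0.000645. In siCHD8 it was 0.82 ± 0.12 (SE), 1.76-fold, with limma adjusted p = 0.000168.

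ACOT1, the cytosolic counterpart of ACOT2, measured 6.95, 6.86 and 6.62 in siCt EtOH and 7.43, 7.21 and 7.05 in siCt R5020. In siCHD8 it measured 6.50, 6.52 and 6.39 with EtOH and 7.29, 7.41 and 7.40 with R5020. Hormone and vehicle arrays did not overlap in either group, though in siCt the gap between them was narrow. The rise was 0.41 ± 0.12 (SE) in siCt (limma adjusted p = 0.0322) and 0.90 ± 0.12 (SE) in siCHD8 (limma adjusted p = 0.000113). The siCt call was lost without EtOH replicate 3 (limma adjusted p = 0.119), R5020 replicate 1 (0.155) or R5020 replicate 2 (0.0721). ACOT1 and ACOT2 are nearly identical genes, and how far each row also reads the other's transcript was not tested, since probe sequences were not used here.

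ACOT4, a peroxisomal enzyme that acts on succinyl-CoA, measured 5.41, 5.68 and 6.04 in siCt EtOH and 6.40, 6.27 and 6.30 in siCt R5020. In siCHD8 it measured 5.76, 5.31 and 5.47 with EtOH and 6.37, 6.30 and 6.28 with R5020. The hormone arrays were tightly grouped and above every vehicle array, and the vehicle arrays were more scattered. The rise was 0.61 ± 0.15 (SE) in siCt (limma adjusted p = 0.0113) and 0.80 ± 0.15 (SE) in siCHD8 (limma adjusted p = 0.00191). The siCt call was lost without EtOH replicate 1 (limma adjusted p = 0.0591) or R5020 replicate 1 (0.0501).

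Among the type II genes, ACOT9, a mitochondrial enzyme, measured 7.28, 7.40 and 7.12 in siCt EtOH and 7.71, 7.91 and 7.88 in siCt R5020. In siCHD8 it measured 7.86, 7.49 and 7.28 with EtOH and 7.76, 7.73 and 7.47 with R5020. The siCt groups were separate, while the siCHD8 groups overlapped throughout. The siCt rise was 0.57 ± 0.14 (SE), 1.48-fold, with limma adjusted p = 0.0151. It was not called without siCt EtOH replicate 3 (limma adjusted p = 0.065), siCt R5020 replicate 2 (0.0564) or siCt R5020 replicate 3 (0.0583). The siCHD8 difference was 0.11 ± 0.14 (SE), with a 95% interval from -0.20 to 0.42 and limma adjusted p = 0.755.

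ACOT11, which pairs its thioesterase domains with a lipid-binding START domain and was named for its induction in brown fat by cold, measured 4.01, 4.19 and 4.19 in siCt EtOH and 4.51, 4.91 and 4.52 in siCt R5020. In siCHD8 it measured 4.0, 4.34 and 4.40 with EtOH and 4.79, 4.16 and 4.47 with R5020. The arrays were separate in siCt and overlapped in siCHD8. The siCt rise was 0.52 ± 0.16 (SE), with limma adjusted p = 0.0474, and rested on every siCt array. With any 1 of the 6 siCt arrays left out the limma adjusted p lay between 0.0645 and 0.176, and over 22 alternatives the call was lost in 13. The siCHD8 difference was 0.23 ± 0.16 (SE), with limma adjusted p = 0.477.

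The brightest row of ACOT7, the cytosolic enzyme abundant in brain, was annotated to both ACOT7 and LOC344967, an ACOT7-like pseudogene on chromosome 4, and the 2 cannot be told apart on it. The row of LOC344967 and ACOT7 measured 5.99, 6.35 and 4.74 in siCt EtOH and 6.07, 6.31 and 6.22 in siCt R5020. The siCt vehicle arrays ranged from below to above all the siCt hormone arrays, and replicate 3 held the lowest value. In siCHD8 it measured 5.62, 5.07 and 5.39 with EtOH and 5.97, 5.80 and 6.04 with R5020, without overlap. The difference was 0.51 ± 0.29 (SE) in siCt (limma adjusted p = 0.266) and 0.58 ± 0.29 (SE) in siCHD8 (limma adjusted p = 0.256). Without siCt EtOH replicate 3 the siCt difference was 0.032 (limma adjusted p = 0.934), and the siCHD8 rise, unchanged in size, was called (limma adjusted p = 0.0178). The siCHD8 rise was also called with only the compared conditions fitted (limma adjusted p = 0.0355). It was called at 0.71 with both vehicle arrays of loosest correlation left out (limma adjusted p = 0.00698). That pair was chosen after seeing the data. The second row, annotated to ACOT7 alone, differed by -0.17 ± 0.11 (SE) in siCt (limma adjusted p = 0.326) and by 0.12 ± 0.11 (SE) in siCHD8 (limma adjusted p = 0.609). For ACOT7 the 2 rows thus gave opposite signs in siCt, and neither passed the test on all 12 arrays.

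ACOT8, ACOT12 and ACOT13 did not pass the test in either cell group. ACOT8, a peroxisomal enzyme with broad substrates, differed by -0.12 in siCt and -0.18 in siCHD8. ACOT12, the liver enzyme that hydrolyses acetyl-CoA, differed by -0.10 and 0.10, and its 12-array mean of 1.90 was above only 11.2% of the rows tested. ACOT13, a partner of the phosphatidylcholine transfer protein, was the brightest of the family in its 12-array mean, at 8.02, and differed by -0.18 and -0.25, with its siCt hormone arrays all below its vehicle arrays. Levels of different rows rest on different probes and are not ranked further.

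**Figure D2:**
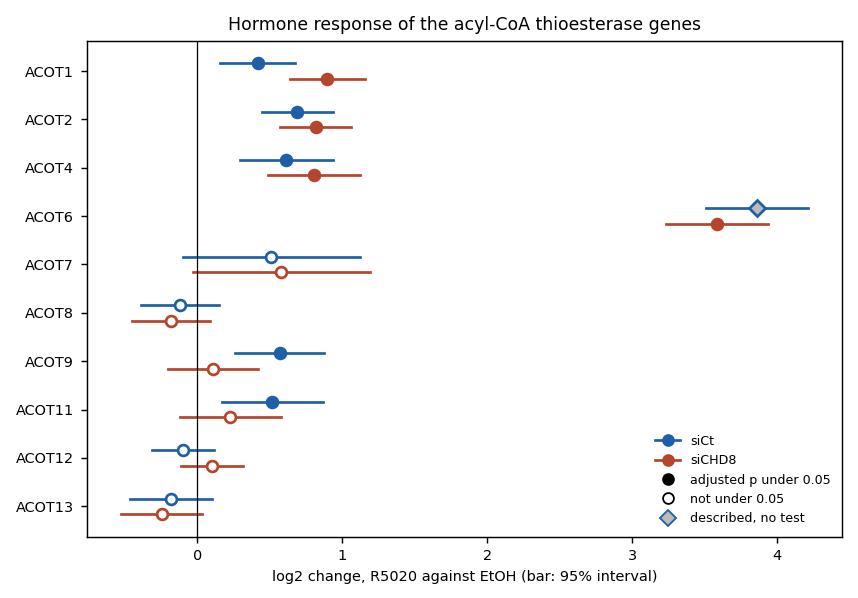
Log2 change with R5020 against EtOH for each gene in siCt and siCHD8 cells, with 95% intervals from limma. Filled points passed adjusted p under 0.05, open points did not, and the grey diamond is the ACOT6 response in siCt, described without a test. The ACOT7 line is the row shared with LOC344967, and the ACOT6 changes of 3.86 and 3.59 lie far to the right of the rest.

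How the responses differed between siCHD8 and siCt was tested as an interaction on all 12 arrays. At adjusted p under 0.05, 0 of the 9 genes other than ACOT6 and 0% of all rows passed in limma, and 2 genes, ACOT1 and ACOT9, and 9.56% of all rows had an unadjusted p under 0.05. ACOT1 responded more in siCHD8, by 0.48 (95% interval 0.12 to 0.85, unadjusted p = 0.0132, limma adjusted p = 0.49). ACOT9 responded less, by -0.46 (95% interval -0.89 to -0.02, unadjusted p = 0.04, limma adjusted p = 0.513). Its difference was -0.30 without siCHD8 EtOH replicate 1 and -0.23 without both vehicle arrays of loosest correlation. The difference for ACOT6 was -0.27, given without a test because its siCt response was known to be high when the family was picked. It was -0.068 without siCHD8 EtOH replicate 3 and -0.41 without siCHD8 EtOH replicate 2. The intervals for ACOT2, from -0.22 to 0.48, and ACOT4, from -0.26 to 0.64, also included 0. A call in siCt and none in siCHD8, as for ACOT9 and ACOT11, is therefore not shown to be a difference between the groups.

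The study compared responses by the ratio of the siCHD8 fold to the siCt fold, with limits of 1.2 and 0.8. That ratio was 1.40 for ACOT1, 1.14 for ACOT4, 1.09 for ACOT2, 0.83 for ACOT6, 0.82 for ACOT11 and 0.73 for ACOT9. ACOT1 was above the upper limit and ACOT9 below the lower one. The study counted a gene as hormone induced only at a fold above 1.5. The siCt folds of ACOT1 and ACOT9, 1.33 and 1.48, were below that. With log2 changes divided in place of folds, the ratio was 2.16 for ACOT1, 1.31 for ACOT4, 0.44 for ACOT11 and 0.19 for ACOT9, which puts ACOT4 and ACOT11 past the limits too. At limits of adjusted p under 0.01 and fold above 1.5, ACOT2 passed in siCt among the 9 genes other than ACOT6, where 6.55% of rows passed, and ACOT1, ACOT2, ACOT4 and ACOT6 in siCHD8, where 5.6% passed.

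CHD8 depletion with EtOH alone gave 0 of 9 called genes, ACOT6 left out, where 0.292% of all rows passed, and changes from -0.34 to 0.28. The lowest was ACOT1, at -0.34 (95% interval -0.60 to -0.09, limma adjusted p = 0.258), the 1 gene whose siCHD8 vehicle arrays were all below the siCt vehicle arrays, as for 8.06% of all rows. The siCHD8 arrays were all above for 0 genes and 5.63% of all rows. With R5020 present the changes of the same 9 genes ran from -0.27 to 0.14, again with 0 of 9 called, where 0.189% of all rows passed. ACOT6, described without a test, differed by -0.52. The siCHD8 arrays were all below for ACOT13 and the row of LOC344967 and ACOT7, 2 of 9 genes against 15.3% of all rows, and all above for 0 against 12.3%. The row of ACOT7 alone went the other way, by 0.20, with its siCHD8 arrays all above. At an unadjusted p under 0.05, limma gave 1 gene with EtOH, ACOT1, and 0 with R5020, where 12.1% and 13.9% of all rows passed. These comparisons use the same arrays as the interaction and do not add to it.

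The type I cluster was set against 6 neighbouring genes by RefSeq start position, of which NUMB lies before it, HEATR4 and RIOX1 overlap it, and DNAL1, PNMA1 and MIDEAS lie after it. MIDEAS, a member of a histone deacetylase complex, rose by 0.99 ± 0.14 (SE) in siCt and 1.01 ± 0.14 (SE) in siCHD8, with limma adjusted p = 0.000107 and 0.000114. RIOX1, a histone demethylase gene that overlaps the RefSeq span of ACOT1, rose by 0.34 in siCt and 0.42 in siCHD8. NUMB, a regulator of Notch signalling, fell by 0.35 on the log2 scale in siCt. Its difference in siCHD8 was -0.07 and did not pass. HEATR4 differed by 0.05 in siCt and 0.42 in siCHD8 and passed in neither. DNAL1 and PNMA1, on the side of ACOT6, did not pass in either group, with siCt differences of 0.33 and 0.03. The large change of ACOT6 was thus followed on its own side by 2 genes without a call before MIDEAS.

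**Figure D3:**
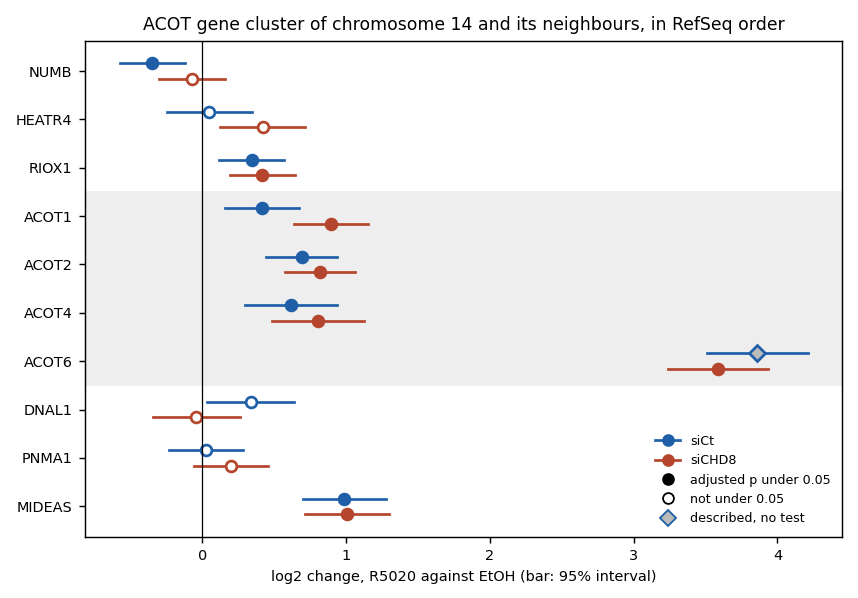
Log2 change with R5020 against EtOH for the chromosome 14 genes in RefSeq order, with the ACOT genes shaded, in siCt and siCHD8 cells (bars are 95% intervals from limma). Filled points passed adjusted p under 0.05, and the grey diamond is described without a test. ACOT6 lies apart at 3.86 and 3.59, MIDEAS near 1 and the other genes below it.

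Beside ACOT9 on the X chromosome, SAT1, the spermidine acetyltransferase gene, rose by 1.98 ± 0.11 (SE) in siCt (limma adjusted p = 1.77e-08) and 1.42 ± 0.11 (SE) in siCHD8, while PRDX4 on its other side differed by 0.13 in siCt and did not pass. Beside ACOT12, SSBP2 and ZCCHC9 rose by 0.40 and 0.41 in siCt while ACOT12 itself did not pass. In all, 5 of 18 neighbours rose and 1 fell in siCt, where 8.1% of all rows rose and 6% fell. In siCHD8, 3 of the 18 rose and 0 fell, where 6.04% of all rows rose and 5.43% fell.

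The rows most like ACOT6 over the 12 arrays, by Pearson correlation among rows with 1 symbol, were LDLRAD3 (0.994), TSC22D3 (0.992), NDRG1 (0.991), AFF1 (0.991) and AZGP1 (0.991). Their siCt changes were 1.51, 2.30, 2.81, 1.03 and 2.23. The arrays share their conditions and 302 of 19450 rows correlated above 0.95, so these values describe a pattern common among rows that were higher with R5020.

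Genes that work beside the thioesterases moved in no single direction in siCt. Of 13 other thioesterases and acyl-CoA hydrolases, 0 were called at adjusted p under 0.05 by limma, with a median change of -0.15. An unadjusted p under 0.05 was found for 3 of the 13, beside 5912 of the 21214 rows tested. At adjusted p under 0.05, 8.1% of all rows rose in siCt and 6% fell. Of 9 genes for coenzyme A breakdown and synthesis, 0 rose and NUDT7, a peroxisomal coenzyme A diphosphatase, fell by 0.90 on the log2 scale (limma adjusted p = 0.00218).

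Of 22 acyl-CoA synthetases, which make the substrates of the thioesterases, 4 rose and 1 fell in siCt, where 8.1% of all rows rose and 6% fell. ACSL1, the long-chain synthetase, rose by 1.79 ± 0.12 (SE) in siCt (limma adjusted p = 9.88e-08) and 1.67 in siCHD8, and ACSS1, the mitochondrial acetyl-CoA synthetase, by 1.31 in siCt. ACSF2 and the fatty acid transporter SLC27A2 also rose in siCt, and SLC27A3 fell. Of 16 genes for acyl-CoA and fatty acid binding, 3 rose and 1 fell in siCt. DBI, the acyl-CoA binding protein, rose by 0.89 ± 0.18 (SE) and STARD7, a phosphatidylcholine transfer protein, by 1.17 ± 0.18 (SE).

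Of 22 genes of mitochondrial beta-oxidation, 2 rose and 2 fell in siCt, close to the 8.1% and 6% of all rows. CPT1A, the carnitine transferase at the entry of the pathway, fell by 1.03 on the log2 scale in siCt (limma adjusted p = 4.93e-05) and by 0.98 in siCHD8. The carnitine carrier SLC25A20 fell too, and the auxiliary enzymes DECR1 and ECI2 rose. Of 14 peroxisomal genes 1 rose, the carnitine acetyltransferase gene CRAT, by 0.68 in siCt and 0.92 in siCHD8.

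Of 18 PPAR genes and PPAR targets, 3 rose and 3 fell in siCt, where 8.1% of all rows rose and 6% fell. PDK4, the kinase that restrains pyruvate dehydrogenase, rose by 2.02 ± 0.14 (SE) in siCt (limma adjusted p = 1.36e-07) and 2.29 in siCHD8, and the lipid droplet gene PLIN2 by 0.72 and 0.50. ANGPTL4, an inhibitor of lipoprotein lipase, fell by 0.95 on the log2 scale and PPARGC1A by 0.92 in siCt, beside CPT1A, which is in this list too. Median changes of the 7 lists lay between -0.15 and 0.10, against 0.51 for the ACOT genes, with or without ACOT6. The ACOT family was picked with the ACOT6 response known. Without ACOT6 the 0.51 is the value of the row of LOC344967 and ACOT7. That row did not pass, and its siCt difference was 0.032 without siCt EtOH replicate 3.

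**Figure D4:**
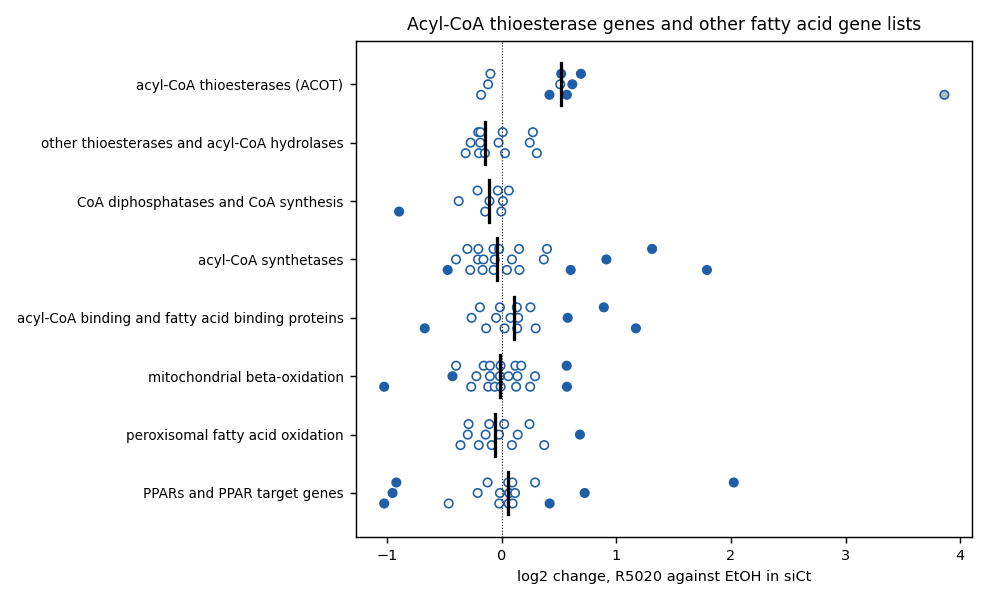
Log2 change with R5020 against EtOH in siCt for each gene of the ACOT family and of 7 related lists. Each point is a gene, filled where limma gave an adjusted p under 0.05, grey for ACOT6, which is described without a test, and the vertical bars are list medians. The ACOT median, drawn with ACOT6 included, is 0.51, and each other list has its median between -0.15 and 0.10.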

How the data were processed

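RNA of 12 samples was measured on Affymetrix Human Gene 1.0 ST arrays. The authors deposited log2 intensities summarised by RMA, which corrects background, normalizes between arrays and combines probes, so no raw signal or detection call was used here. Groups followed the sample labels, which call the arrays biological replicates. Rows without a gene symbol (12083 of 33297) were left out, and 1754 rows carried several symbols. The remaining 21214 rows were fitted together, with a mean for each condition, in limma 3.58.1 in R 4.3.3 (lmFit and eBayes), with Benjamini-Hochberg adjustment over all of them and a threshold of 0.05. Tests on simulated data preceded the fit. The median standard error of a difference was 0.13, and the number of arrays limits the precision. Promoter windows and gene order came from RefSeq. The rule named the brightest row of each member, its neighbours and 5 like rows. Members, gene lists and the CHD8 check were chosen with earlier results of these data known. Alternatives comprised scaling, filters, model settings, rows and left-out arrays.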

Additional observations from a re-analysis of the deposited data

How the results depend on the processing

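Leaving out ACOT6, 5 of 9 genes passed in siCt. This was 1 at adjusted p under 0.01 with fold over 1.5, 3 with all probe sets tested, and 2 to 5 when 1 array was left out. The count was 3 when both vehicle arrays of loosest correlation were left out, an alternative chosen after seeing the data. It was 2 without siCt EtOH replicate 3, siCt R5020 replicate 1 or siCt R5020 replicate 2, and 3 without siCt EtOH replicate 1 or siCt R5020 replicate 3. The call of ACOT2 held in all 23 alternatives. Those of ACOT1 (adjusted p from 0.0141 to 0.155), ACOT4 (0.000513 to 0.0591), ACOT9 (0.00505 to 0.065) and ACOT11 (0.026 to 0.176) were lost in 8, 3 and 4 of 23 and in 13 of 22. In siCHD8 the count, with ACOT6 included where it has a value, lay between 3 and 5 in all alternatives.

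Replicate numbers did not pair the arrays: deviations of same-numbered arrays correlated at -0.25 to 0.20, and 5 of 12 arrays matched their own number best. With the replicate block, 4 genes passed in siCt, ACOT11 being lost.

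The depletion comparisons gave 1 gene, the row of LOC344967 and ACOT7, with EtOH when both vehicle arrays were left out. The CHD8 difference with EtOH passed under quantile normalization (-0.59), without dim probe sets (-0.58), and with trend and robust settings (-0.58), and lay between -0.70 and -0.50 with 1 array left out. With R5020 it passed without dim probe sets, with trend and robust settings, with only the compared conditions and without both vehicle arrays (-0.62 each), and with array weights (-0.64), and lay between -0.67 and -0.53 with 1 array left out.

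Among the lists, called genes in siCt went from 0 to 1 for the other thioesterases (quantile normalization, no dim probe sets, both vehicle arrays left out), from 1 to 2 for coenzyme A breakdown and synthesis (no dim probe sets; 1 to 2 with 1 array left out), from 1 to 2 for peroxisomal genes (quantile normalization, no dim probe sets; 1 to 2 with 1 array left out), and from 5 to between 3 and 6 for the synthetases with 1 array left out, 3 being without siCt EtOH replicate 1.

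The sign turned for ACOT7 in siCt, to -0.17 with its second probe set or with probe sets of 1 gene only, and for ACOT9 in siCHD8, from 0.11 to -0.023 without siCHD8 EtOH replicate 3 (-0.023 to 0.26 over all arrays left out in turn). With log2 changes divided, the ratio was 1.31 for ACOT4 and 0.44 for ACOT11. The causes were not tested. ACOT6, ACOT11 and ACOT12 are below the median brightness and have no value without dim probe sets. The difference of responses has no separate fit on the compared conditions only.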
